A study of Mus musculus with 8 samples.

Results

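The 10 genes described here act in extracellular proteolysis: the matrix metalloproteinases Mmp9, Mmp12, Mmp13, Mmp14 and Mmp19, the tissue inhibitors Timp1 and Timp2, and the membrane-bound sheddases Adam8, Adam10 and Adam17. They were chosen by gene symbol, with earlier results of these data known, and are 10 of the 26848 genes in the table. All 10 symbols were found, each in 1 row, and 9 of them passed the filter on low counts and were tested. With counts divided by 4, an alternative set out below, 7 passed it. The cells were RAW264.7, a mouse line with macrophage properties that was transformed by Abelson leukaemia virus. Every culture stood on polyetheretherketone (PEEK), a plastic of which bone implants are made. In 4 libraries (smooth 1 to 4) the PEEK surface was smooth, and in the other 4 (structured 1 to 4) it carried nano- and microscale structure. The labels name no genotype, drug or cytokine for either group. The sources used here do not give the time in culture or the way the structure was made. The labels call 3 libraries of each group biological replicates but do not say whether the cultures were separate, so p-values measure the spread between these libraries, which may be technical.

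Matrix metalloproteinases are zinc enzymes that cut collagens, elastin, gelatin and other matrix proteins. They are made as inactive precursors that are activated outside the cell or, for membrane-type enzymes such as that of Mmp14, by furin-like proteases on the way to the surface. TIMP proteins block the active sites of metalloproteinases. ADAM enzymes are related proteins anchored in the membrane that cut other membrane proteins close to the cell surface. ADAM17 releases tumour necrosis factor and its receptors, ADAM10 starts Notch signalling and cuts amyloid precursor protein, and ADAM8 is a sheddase of leukocytes and osteoclasts. In macrophages these enzymes serve migration, matrix turnover and the release of cytokines, and around an implant they take part in remodelling the tissue at its surface. Their activity is set largely after transcription, and only RNA was measured here.

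None of the 9 tested genes passed the adjusted threshold between the surfaces. The smallest unadjusted p in edgeR belonged to Adam17, 10.6% higher on structured PEEK, and to Mmp9 and Adam8, with differences of -13.8% and -8.19%. The fitted differences of Mmp12 (-49.9%) and Mmp14 (21%) were larger, but their intervals were wide and held differences of either sign. Among other genes of the pathway, the neutrophil collagenase Mmp8 and the MMP9 partner Lcn2 rose, and the ADAM17 partner Rhbdf2, the precursor-cleaving protease Furin, the sheddase substrates Lrp1 and Notch2, and the transcription factor genes Jun and Ets2 fell. The calls of Rhbdf2, Furin and Notch2 each ended under 13 of 22 alternatives, and a correction for GC content and gene length ended these 3 and that of Lrp1.

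Library totals ran from 64479829 to 73098735 count units, a unit in which 1 sequenced fragment appears to count as 4. A count of 3 fragments, taken as the limit that a count of 0 allows, were then 0.166 to 0.186 CPM (counts per 1e6 of the scaled library total), and this limit covers counting error only. All 12 macrophage markers lay above 1 FPKM (fragments per kilobase of gene and 1e6 fragments) in every library. None of them was called between the surfaces, and 3 had an unadjusted p under 0.05 in edgeR. Transcripts of other cell types were also present. The summed FPKM of 13 neutrophil markers was 1.23 to 2.19 on smooth PEEK, 10.2 in structured 1 and 43.9 to 49.3 in structured 2 to 4. Of the 7 neutrophil markers tested, 5 rose (Lcn2, S100a9, Mmp8, Ngp and S100a8), and Ngp, Ltf, Mmp8, Elane, Mpo and Retnlg were at 0 in all 4 smooth libraries. The summed FPKM of 16 hepatocyte markers was 41.1 to 188 on smooth and 69.2 to 263 on structured PEEK, and smooth 1, structured 3 and structured 4 stood above the other 5 libraries. That of 12 muscle markers was 10.4 to 30.6 on smooth, highest in smooth 1, and 9.67 to 12.2 on structured PEEK. Of the 12 muscle markers tested, 3 fell (Ckm, Tnnc2 and Atp2a1), 10 had an unadjusted p under 0.05 in edgeR, and the median log2 fold change was -3.06. The 3 epithelial markers in the table summed to 0.117 to 0.579 FPKM on smooth and 0.682 to 3.48 on structured PEEK, without overlap. Of them 2 were tested, both with an unadjusted p under 0.05 in edgeR and neither called, with a median log2 fold change of 1.88. Fibroblast markers summed to at most 0.578 FPKM. The 8 osteoclast markers in the table summed to 63.6 to 69.55 FPKM on smooth and 61.4 to 74.8 on structured PEEK. Of them 7 were tested and none was called, with 3 at an unadjusted p under 0.05 in edgeR. The part of these transcripts in the results below was not tested. In bulk RNA, fewer cells of a type cannot be told apart from less RNA per cell.

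The sequences before the start sites are shown here because the promoters of inducible metalloproteinase genes are known for sites of AP-1 (the motif TGACTCA, or TGAGTCA on the opposite strand) and for neighbouring sites of ETS factors (PEA3, the motif AGGAAG, or CTTCCT on the opposite strand), and because genes of both factor families were measured. RefSeq promoters of build GRCm38.p6, from 250 bases before to 50 after the start, matched 8 of the 10 genes in 9 promoters, all but Mmp9 and Mmp19. The AP-1 motif occurred in 5.19% of 32544 such promoters and the ETS motif in 35.1%, on either strand. No AP-1 match overlapped an ETS match in the 9 promoters. The AP-1 motif was found in 2 of the 8 genes, Mmp12 and Mmp13, and the ETS motif in 6: Mmp12, Mmp13, Mmp14, Timp1, Adam10 and Adam17. In Mmp13 both motifs lay in the same promoter, and in Mmp12 they lay in different promoters. Timp2 and Adam8 held neither in this window. Printed 5′ to 3′ on the gene's own strand are the 250 bases before the start of the collagenase gene Mmp13, with both motifs (chr9:7272264-7272513, plus strand), of the inhibitor gene Timp1 (chrX:20869916-20870165, plus strand) and of the sheddase gene Adam17 (chr12:21373633-21373882, minus strand). Capitals mark the motif matches.
Mmp13: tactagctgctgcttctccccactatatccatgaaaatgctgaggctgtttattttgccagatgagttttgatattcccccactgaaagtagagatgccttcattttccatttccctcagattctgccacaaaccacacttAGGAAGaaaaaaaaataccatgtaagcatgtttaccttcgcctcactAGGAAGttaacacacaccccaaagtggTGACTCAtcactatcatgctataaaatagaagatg
Timp1: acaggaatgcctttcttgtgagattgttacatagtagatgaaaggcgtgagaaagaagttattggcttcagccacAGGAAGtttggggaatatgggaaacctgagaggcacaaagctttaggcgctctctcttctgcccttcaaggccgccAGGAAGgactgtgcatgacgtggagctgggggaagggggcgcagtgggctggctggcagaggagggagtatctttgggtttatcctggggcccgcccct
Adam17: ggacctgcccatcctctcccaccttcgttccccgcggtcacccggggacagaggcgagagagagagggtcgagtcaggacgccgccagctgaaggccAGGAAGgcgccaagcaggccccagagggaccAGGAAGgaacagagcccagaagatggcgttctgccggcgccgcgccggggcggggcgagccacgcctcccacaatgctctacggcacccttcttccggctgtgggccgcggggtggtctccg
In Mmp13 the AP-1 match began 35 bases before the start and the ETS matches 109 and 62 bases before it. In Timp1 the ETS matches lay 175 and 99 bases before the start, with another after it. In Adam17 they lay 153 and 122 bases before it. A match is a description of the letters and does not show that a factor binds there.

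Compared per length, the sheddase genes were the most abundant of the 10 on both surfaces. By mean FPKM over all 8 libraries the order was Adam8 (115 ± 5.92, SD, n = 8), Adam17 (37.1 ± 2.30), Adam10 (29.1 ± 0.991), Mmp9 (14.8 ± 1.38), Timp1 (6.88 ± 1.46) and Mmp19 (0.993 ± 0.0984), followed by Timp2 (0.115 ± 0.023), Mmp14 (0.103 ± 0.0441), Mmp13 (0.0578 ± 0.111) and Mmp12 (0.0484 ± 0.0372). Mmp9 was the only one of the 5 metalloproteinase genes above the mean of Timp1, and Timp1 was the main inhibitor transcript. Neighbours from Adam8 down to Timp2 did not overlap in mean ± SD. Timp2, Mmp14, Mmp13 and Mmp12 did not differ from their neighbours beyond that spread. CPM per kilobase of exon gave the same order.

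**Figure D1:**
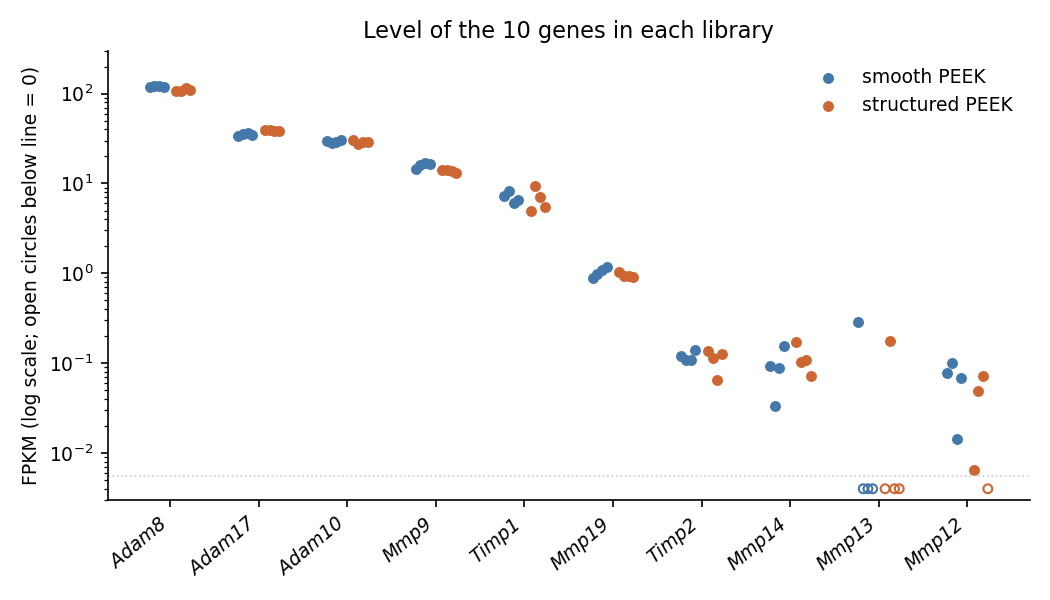
FPKM of the 10 genes in each of the 8 libraries, on a log scale, in order of their mean, with smooth PEEK in blue and structured PEEK in orange. Open circles below the dotted line are values of 0. Adam8 lies near 115 FPKM, and Mmp12 and Mmp13 lie at or under 0.286 FPKM in every library.

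Adam17 encodes the enzyme that frees tumour necrosis factor from the membrane (ENSMUSG00000052593, chromosome 12, 21323509 to 21373632, minus strand). Its FPKM was 33.4, 35.35, 36.8 and 35.0 in smooth 1 to 4 and 39.2, 39.7, 38.75 and 38.4 in structured 1 to 4. All 4 structured libraries lay above all 4 smooth ones, in FPKM and in CPM. The mean was 35.1 ± 1.40 FPKM on smooth and 39.0 ± 0.575 on structured PEEK (SD, n = 4 each). The log2 fold change was 0.15 ± 0.04 (SE), a difference of 10.6% with a 95% interval of 3.89% to 17.8%, at an adjusted p of 0.0778 by edgeR's quasi-likelihood test. The unadjusted p was 0.0045 in that edgeR fit. With each library's trend over GC content and gene length removed, the fold change was 0.16 with an edgeR adjusted p of 0.0384. With library number added to that fit as a block, the edgeR adjusted p was 0.0582. Under the 22 alternatives the adjusted p lay between 0.00511 and 0.216. Adam17 shares 311 exon bases with Iah1 on the opposite strand, which had 1311 units on average against 19329 for Adam17, and the sources used here do not give the strand setting of the counting.

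Adam8 encodes a leukocyte sheddase that is also made by osteoclasts (ENSMUSG00000025473, chromosome 7, 139978932 to 139992562, minus strand). Its FPKM was 119.9, 120.3, 120.1 and 117.7 on smooth PEEK and 106.9, 106.8, 116.7 and 110.1 on structured PEEK. All 4 structured libraries lay below all 4 smooth ones, with structured 3 the closest to them. The means were 119.5 ± 1.19 and 110.1 ± 4.67 FPKM, and the log2 fold change was -0.12 ± 0.04 with a 95% interval of -0.20 to -0.05. The edgeR adjusted p was 0.0803, and without structured 3 it was 0.0403 at a fold change of -0.15. With the trend over GC content and gene length removed it was 0.174 at a fold change of -0.09. Under all alternatives the lowest and highest adjusted p were 0.0106 and 0.216. Gm16201 shares 46 exon bases with Adam8 on the opposite strand and had 1099 units on average against 38806.

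Adam10, the sheddase of Notch receptors, lay on chromosome 9 from 70678997 to 70780229, on the plus strand. It had 29.55, 28.5, 28.65 and 30.2 FPKM in the smooth and 30.2, 27.2, 29.2 and 29.0 FPKM in the structured libraries. The groups overlapped throughout, with means of 29.2 ± 0.791 and 28.9 ± 1.26 FPKM. The log2 fold change was -0.02 ± 0.04 with a 95% interval of -0.11 to 0.06, so the interval holds differences of either sign (edgeR adjusted p of 0.825). Without structured 2 the fold change was 0.0002.

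The sheddase genes were also set against each other. Within a library, Adam17 stood to Adam8 as 0.294 ± 0.0116 on smooth and 0.355 ± 0.0183 on structured PEEK in FPKM (SD, n = 4 each), and to Adam10 as 1.20 ± 0.0715 and 1.35 ± 0.0736. These ratios are combinations of the values above and carry no test.

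**Figure D2:**
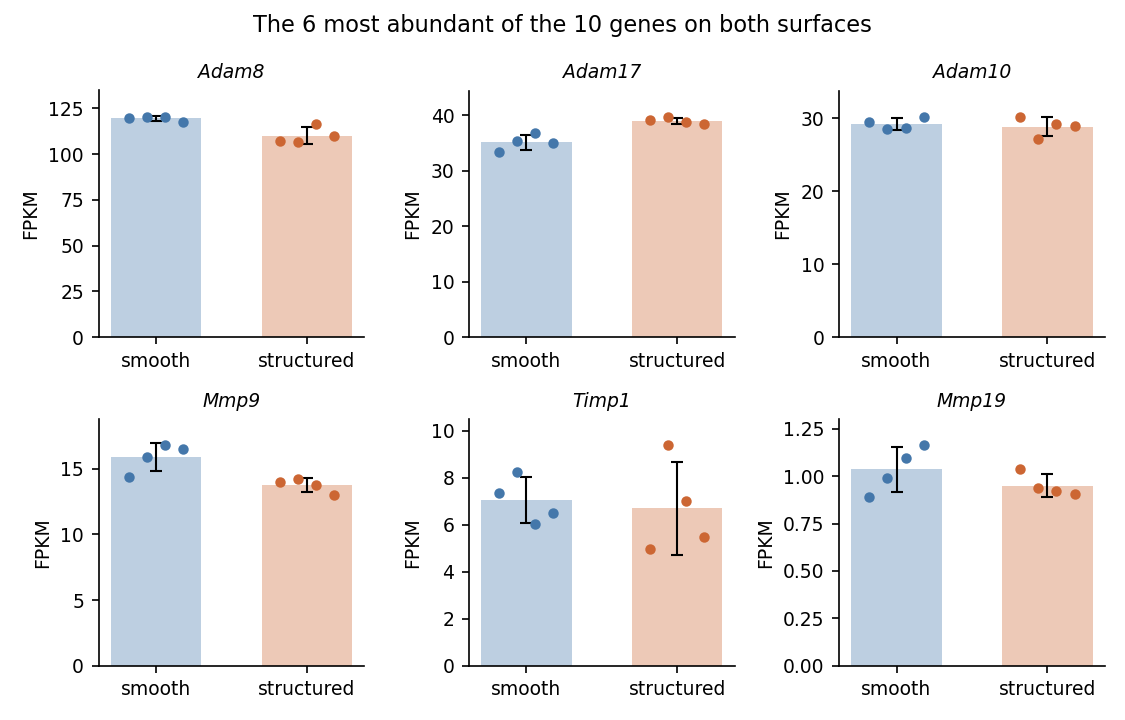
FPKM of the 6 most abundant of the 10 genes on smooth and structured PEEK. Points are libraries, bars are means and error bars are the SD of 4 libraries. The Adam17 points on structured PEEK (38.4 to 39.7 FPKM) lie above those on smooth PEEK (33.4 to 36.8), those of Adam8 and Mmp9 lie below, and those of Adam10, Timp1 and Mmp19 overlap.

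Mmp9 encodes gelatinase B, which cuts denatured collagen and type IV collagen and which osteoclasts and neutrophils also make (ENSMUSG00000017737, chromosome 2, 164940780 to 164955850, plus strand). It had 14.35, 15.9, 16.8 and 16.5 FPKM on smooth and 13.99, 14.2, 13.8 and 13.0 FPKM on structured PEEK. Smooth 1 was the lowest of the smooth libraries and lay next to the structured ones: the groups did not overlap in FPKM but did in CPM, where smooth 1 had 53.3 and structured 2 had 54.1. The means were 15.9 ± 1.08 and 13.7 ± 0.529 FPKM. The log2 fold change was -0.21 ± 0.06 with a 95% interval of -0.35 to -0.08, at an unadjusted p of 0.00455 and an adjusted p of 0.0782 by edgeR's quasi-likelihood test. Without smooth 1 the fold change was -0.27 and the edgeR adjusted p 0.0229. With the trend over GC content and gene length removed they were -0.19 and 0.131. Under all alternatives the lowest and highest adjusted p were 0.0132 and 0.199. Mmp9 was lower in the group whose neutrophil marker sum was higher. The structured library with the lowest sum, structured 1, had 13.99 FPKM, within the range of the other 3. Whether neutrophil transcripts contribute to the Mmp9 values was not tested.

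The other 4 metalloproteinase genes were near or below 1 FPKM. Mmp19, a secreted enzyme of the basement membrane and matrix, had 0.890, 0.992, 1.10 and 1.16 FPKM on smooth and 1.04, 0.939, 0.922 and 0.905 FPKM on structured PEEK, and the groups overlapped. Its log2 fold change was -0.13 ± 0.14 (95% interval -0.44 to 0.18, edgeR adjusted p of 0.713). It lies on chromosome 10 from 128790910 to 128800824, on the plus strand, and shares 789 exon bases with Tmem198b on the opposite strand, which had 263 units on average against 257, so reads of the 2 genes may be mixed. Mmp14, the membrane-type collagenase that activates other metalloproteinases, is placed by the table on chromosome 14 from 54431612 to 54441265. It had 0.0926, 0.0331, 0.0875 and 0.154 FPKM on smooth and 0.172, 0.103, 0.109 and 0.0715 FPKM on structured PEEK. Its log2 fold change of 0.28 ± 0.43 had a 95% interval of -0.66 to 1.21 (edgeR adjusted p of 0.81), which holds differences of either sign.

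Mmp12, the elastase of macrophages, and Mmp13, a collagenase of bone and cartilage, lie close together on chromosome 9 (7344381 to 7369499 and 7272514 to 7283331, both on the plus strand). Mmp12 had 40, 56, 8 and 39 count units on smooth and 4, 27, 40 and 0 units on structured PEEK. Of the 8 libraries, smooth 3, structured 1 and structured 4 were under the 12 units of 3 fragments. Its log2 fold change of -1.0 ± 0.91 had a 95% interval of -3.00 to 1.01 (edgeR adjusted p of 0.644), which holds differences of either sign. Whether depth or variation between the libraries widened this interval was not tested. Mmp13 had counts in 1 library of each group, 54 units in smooth 1 and 35 units in structured 2, and 0 in the other 6. It did not pass the filter and no fold is given.

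Timp1, an inhibitor of most secreted metalloproteinases that stimulated macrophages release, had 7.33, 8.27, 6.03 and 6.51 FPKM on smooth and 4.96, 9.38, 7.02 and 5.49 FPKM on structured PEEK. Structured 2 was the highest and structured 1 the lowest of all 8, so the smooth range lay inside the structured range. The means were 7.04 ± 0.981 and 6.71 ± 1.98 FPKM, and the log2 fold change was -0.07 ± 0.19 (95% interval -0.50 to 0.36, edgeR adjusted p of 0.903). Its sign turned without smooth 2 (0.0194), structured 1 (0.0505) or structured 4 (0.0167). The gene lies on chromosome X from 20870166 to 20874735, within an intron of Syn1 on the opposite strand, with no shared exon base. Timp2, which also takes part in the activation of MMP2 by MMP14, was about as low as Mmp14. It had 0.121, 0.110, 0.109 and 0.139 FPKM on smooth and 0.135, 0.115, 0.0647 and 0.127 FPKM on structured PEEK (chromosome 11, 118301069 to 118355740, minus strand). Its log2 fold change was -0.12 ± 0.36 (95% interval -0.92 to 0.67, edgeR adjusted p of 0.911), and 0.0649 without structured 3.

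Set against its inhibitors within each library, Mmp9 stood to the sum of Timp1 and Timp2 as 1.925, 1.897, 2.73 and 2.48 on smooth and 2.745, 1.495, 1.95 and 2.31 on structured PEEK, in FPKM. The means were 2.26 ± 0.413 and 2.12 ± 0.532, and the groups overlapped. Structured 1, with the least Timp1, had the highest ratio, and structured 2, with the most, had the lowest. The ratio carries no test.

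**Figure D3:**
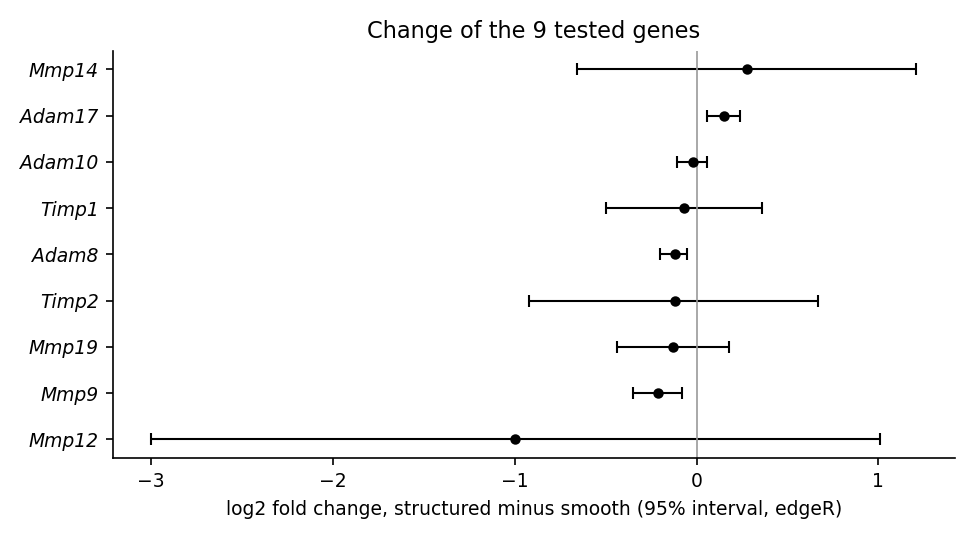
Log2 fold change, structured minus smooth, of the 9 tested genes with its 95% interval from edgeR. The intervals of Adam17 (0.06 to 0.24), Adam8 (-0.20 to -0.05) and Mmp9 (-0.35 to -0.08) leave out 0 although their adjusted p missed the threshold, and that of Mmp12 is the widest, from -3.00 to 1.01.

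The counts over the 10 genes rest on few genes and are given beside the shares of the whole table. By edgeR, 0 of the 9 tested genes were called in either direction, against 3.75% of the 16006 genes tested, with 1.01% higher and 2.75% lower. At an unadjusted p under 0.05 in edgeR there were 3 of 9 (Adam17, Mmp9 and Adam8), against 18.7% of all. DESeq2 called those 3 of the 6 that it gave an adjusted p, against 13.4% of 10726 genes, with adjusted p of 0.00511 for Adam17, 0.0132 for Mmp9 and 0.0106 for Adam8. voom called 0 of 9. Groups did not overlap in CPM for 2 of the 9, Adam17 and Adam8, against 12.2% of all genes tested. The median log2 fold change was -0.12 over the 9 and 0.01 over all genes tested, and 7 of the 9 were negative, against 48.8% of all. Among all genes tested, 161 were called higher and 440 lower, against 209 higher and 246 lower after correction for GC content and length. The total of 601 calls was 240, 166 and 219 without smooth 2, 3 and 4 and 306, 125 and 88 without structured 1, 2 and 4.

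The partners that bring ADAM enzymes to the surface were examined next. Of 9 such genes, 8 were tested, 1 fell and none rose, with a median log2 fold change of 0.07. The one that fell was Rhbdf2, which encodes iRhom2, the carrier that ADAM17 needs to leave the endoplasmic reticulum in macrophages. It had 14.5, 14.1, 14.6 and 14.4 FPKM on smooth and 12.5, 11.75, 13.4 and 12.7 FPKM on structured PEEK, and no library of one group reached the other. The log2 fold change was -0.20 ± 0.04 (edgeR adjusted p of 0.0304). Leaving out smooth 2, 3 or 4 or structured 1, 2 or 4, each alone, ended the call, as did the correction for GC content and length (-0.14, edgeR adjusted p of 0.105).

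Adam17 was set against Rhbdf2 within each library. The ratio of their FPKM was 2.30, 2.50, 2.52 and 2.425 on smooth and 3.14, 3.38, 2.90 and 3.03 on structured PEEK, with means of 2.44 ± 0.0995 and 3.11 ± 0.204. Every structured library lay above every smooth one, which follows from Adam17 being higher and Rhbdf2 lower in all structured libraries. The ratio was taken up with both genes' values known and has no test.

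**Figure D4:**
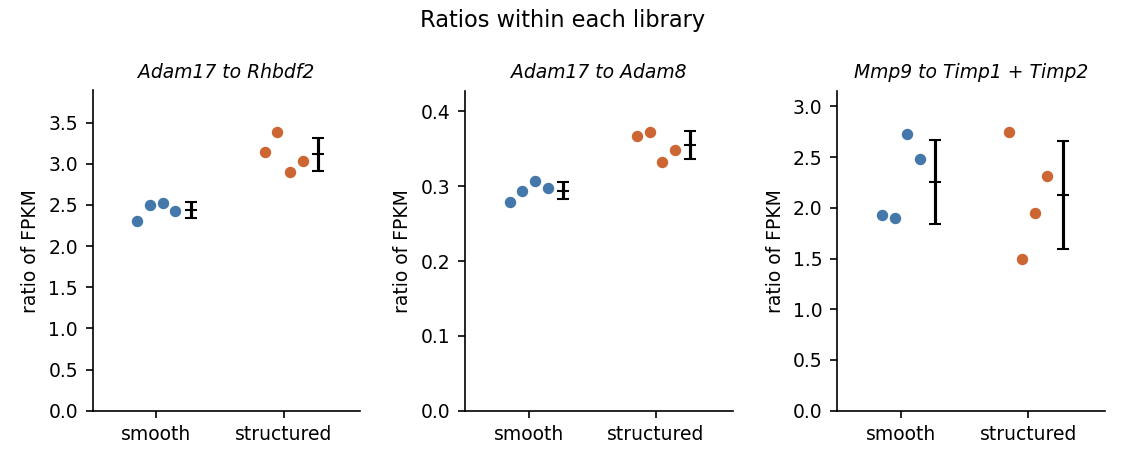
Ratios of FPKM within each library for Adam17 to Rhbdf2, Adam17 to Adam8 and Mmp9 to the sum of Timp1 and Timp2. Points are libraries, with the mean and SD of 4 libraries beside them. The Adam17 ratios are higher on structured PEEK in all libraries, which follows from the separation of each gene's own values, and the Mmp9 ratio overlaps.

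Of the other ADAM and ADAMTS genes, 10 of 18 were tested and none was called, with 2 at an unadjusted p under 0.05 in edgeR and a median log2 fold change of -0.11. The most abundant was Adam15, an ADAM with an integrin-binding site, at a mean of 49.6 FPKM over the 8 libraries. Its log2 fold change was -0.16 with a 95% interval of -0.27 to -0.05 (edgeR adjusted p of 0.0989, with 0.0128 and 0.342 the lowest and highest under all alternatives).

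Of 18 other metalloproteinase genes, 14 were in the table and 4 were tested, 1 rose, and the median log2 fold change was 0.29. Mmp8, the neutrophil collagenase, was at 0 in all 4 smooth libraries and had 0.289, 4.67, 4.65 and 4.96 FPKM in structured 1 to 4. It was at least 215-fold higher on structured PEEK, with the smooth group set to the limit that a count of 0 allows over its 4 libraries (edgeR adjusted p of 0.0098). Structured 1 was far below the other 3, as it was for the neutrophil marker sum, of which Mmp8 is a part. Limma on log2(FPKM + 0.5) and log2(FPKM + 1) and voom did not call it, with adjusted p of 0.0563, 0.0686 and 0.234. Of 7 other inhibitors 4 were tested and none was called, with 0 at an unadjusted p under 0.05 in edgeR and a median of -0.21.

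Of 11 genes that activate, bind or localise metalloproteinases, 9 were tested, 1 rose and 1 fell, with a median log2 fold change of 0.10. Furin, the protease that removes the prodomains of ADAM10, ADAM17 and MMP14, had 6.94, 6.94, 6.19 and 6.79 FPKM on smooth and 6.14, 5.35, 5.67 and 5.72 FPKM on structured PEEK. Only structured 1 came close to the smooth libraries, just under smooth 3. The log2 fold change was -0.24 ± 0.05 (edgeR adjusted p of 0.0334), and the call ended without smooth 1, 2 or 4 or structured 2, 3 or 4, each alone, and with the GC and length correction (-0.15, edgeR adjusted p of 0.133). Lcn2, a lipocalin that binds MMP9 in a complex and is also a neutrophil granule protein, had 0.584, 0.135, 0.236 and 0.434 FPKM on smooth and 3.99, 6.17, 5.61 and 5.60 FPKM on structured PEEK. Its log2 fold change was 3.90 ± 0.35 (edgeR adjusted p of 6.2e-04), and it is counted among the neutrophil markers above.

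Of 28 substrates of sheddases, 21 were tested and 3 fell, with a median of -0.00. Lrp1, an endocytic receptor that clears proteases and their inhibitors, had 53.6, 53.1, 55.9 and 52.0 FPKM on smooth and 41.7, 45.9, 44.4 and 41.3 FPKM on structured PEEK. The groups were well apart, and the log2 fold change was -0.31 ± 0.04 (edgeR adjusted p of 0.00689), or -0.19 at an edgeR adjusted p of 0.0566 with the GC and length correction. Notch2, cut by ADAM10, had 12.0, 11.5, 12.5 and 12.0 FPKM on smooth and 10.5, 10.2, 11.1 and 9.84 FPKM on structured PEEK (-0.21 ± 0.04, edgeR adjusted p of 0.0303). That call ended without smooth 2, 3 or 4 or structured 1, 2 or 4, each alone, and with that correction (-0.13, edgeR adjusted p of 0.107). App, also cut by ADAM10 and named after its value was seen, was the remaining one that fell, at -0.21 with an edgeR adjusted p of 0.0497, and it was lost without smooth 2, 3 or 4 or structured 1, 2 or 4 and with the correction (edgeR adjusted p of 0.134). Tnf, named beside Adam17 as its best-known substrate and not by the rule for named genes, had a log2 fold change of 0.05 (edgeR adjusted p of 0.672).

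Matrix components were mostly not past the threshold: of 25 genes 23 were tested, 2 rose and none fell, with a median of -0.02. Thbs1, a matricellular glycoprotein, had 0, 0.0327, 0.0142 and 0.0218 FPKM on smooth and 0.646, 0.0949, 0.263 and 0.335 FPKM on structured PEEK (4.17 ± 0.74, edgeR adjusted p of 0.0163). Its call ended without smooth 3 or structured 4. Tgfbi, a matrix protein induced by TGF-beta, had 0.0197 to 0.0441 FPKM on smooth and 0.0688 to 0.273 FPKM on structured PEEK (2.38 ± 0.52, edgeR adjusted p of 0.0329), and its call ended when any 1 library but structured 1 was left out. Both genes stayed under 1 FPKM in every library, and Tgfbi did not pass the filter once counts were divided by 4.

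Of 15 genes of the AP-1 and ETS families, all 15 were tested, 2 fell and none rose, with a median of -0.12. Jun, an AP-1 subunit, had 28.8, 28.7, 29.0 and 30.9 FPKM on smooth and 23.2, 23.0, 25.2 and 23.5 FPKM on structured PEEK (-0.31 ± 0.04, edgeR adjusted p of 0.00732). Ets2 had 54.1, 48.9, 50.8 and 48.2 FPKM on smooth and 42.2, 42.0, 44.0 and 42.9 FPKM on structured PEEK (-0.24 ± 0.04, edgeR adjusted p of 0.0110). Neither gene had a structured library inside its smooth range, and leaving out each library in turn kept both calls. Of the 2 genes with an AP-1 match in the promoters above, no difference was detected for Mmp12, and Mmp13 was not tested. Both genes also had an ETS match, in the same promoter for Mmp13 and in a different promoter for Mmp12. The other genes with an ETS match were Adam17, Mmp14, Timp1 and Adam10. Their log2 fold changes were 0.15, 0.28, -0.07 and -0.02, none past the threshold. Whether these factors act on these genes was not tested. Without smooth 1, structured 3 and structured 4 together, the 3 libraries highest in hepatocyte transcripts, edgeR no longer called Rhbdf2, Furin, Notch2, Tgfbi and Ets2 (adjusted p of 0.059, 0.185, 0.0921, 0.149 and 0.058), with 5 libraries in the fit in place of 8. Their log2 fold changes were then -0.26, -0.22, -0.22, 2.35 and -0.24, against -0.20, -0.24, -0.21, 2.38 and -0.24 with all libraries. In that fit edgeR still called Mmp8, Lcn2, Lrp1, App, Thbs1 and Jun. Limma on log2(FPKM + pseudocount), at each of the 3 pseudocounts, called none of Rhbdf2, Furin, Notch2, App, Thbs1 and Tgfbi, and voom did not call Thbs1 and Tgfbi (adjusted p of 0.0758 and 0.0644). With no count filter, edgeR did not call Rhbdf2, Furin, Notch2, App, Thbs1 and Tgfbi (adjusted p of 0.058 to 0.123), and with DESeq2 size factors or upper quartile scaling it did not call App (0.0527 and 0.0508). An unadjusted p under 0.05 in edgeR was reached by 6 of 9 activator genes, 7 of 21 substrates and 6 of 15 AP-1 and ETS genes. It was reached by 3 of 23 matrix genes, 2 of 8 partners and 1 of 4 other metalloproteinase genes, against 18.7% of all genes tested. Of all genes tested, 1.01% were called higher and 2.75% lower. These lists were compared with the table by counts and medians only, and no list was tested.

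**Figure D5:**
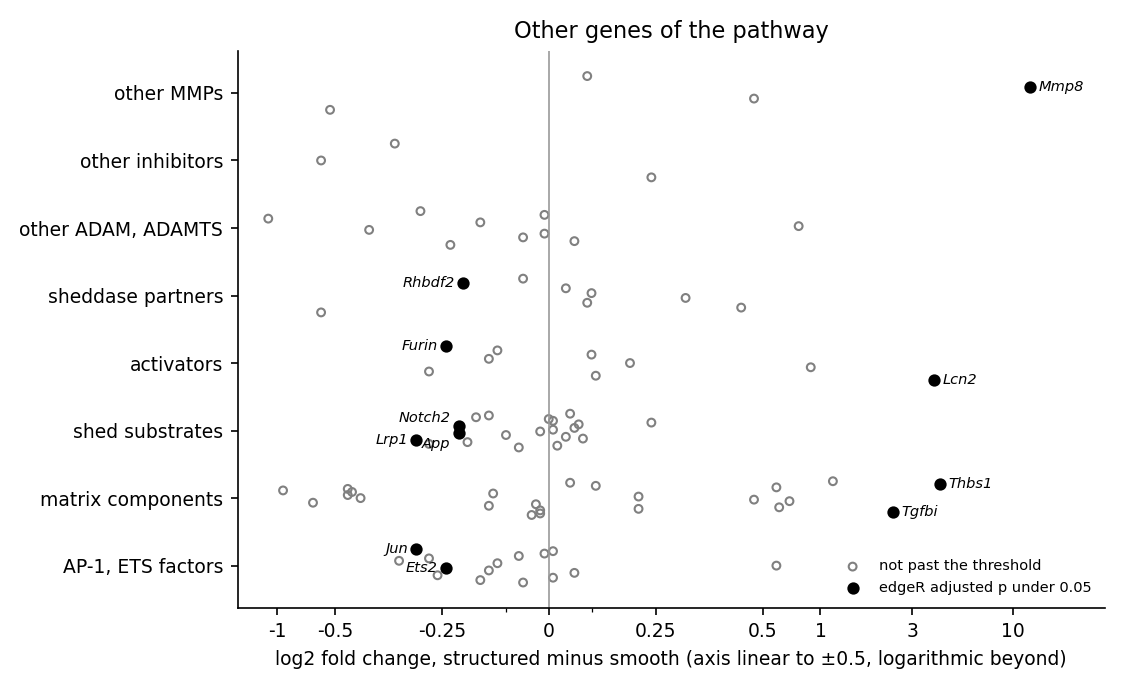
Log2 fold change, structured minus smooth, of tested genes of the 8 lists of other pathway genes, on an axis that is linear to 0.5 and logarithmic beyond. Filled points are genes with an edgeR adjusted p under 0.05. Mmp8 (12.33, a fitted value against a group at 0), Lcn2, Thbs1 and Tgfbi lie to the right, and Rhbdf2, Furin, Notch2, App, Lrp1, Jun and Ets2 lie to the left between -0.31 and -0.20.

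The genes whose log2 CPM ran most like these over the 8 libraries were looked up among 7061 genes with a mean of at least 5 FPKM, for the 2 genes with the smallest p. For Adam17 they were Rpn1 (Pearson's r of 0.98), which encodes a subunit of the oligosaccharyltransferase, and Dock10 (0.98), a guanine nucleotide exchange factor. In all, 137 genes had r over 0.9 with Adam17. For Mmp9 they were Atxn10 (0.99) and Naa60 (0.98), an acetyltransferase, and 46 genes had r over 0.9. All 8 points share the difference between the surfaces and the depth of their libraries, so these values are descriptions.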

How the data were processed

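RNA of RAW264.7 cells was sequenced in 8 libraries, 4 for each surface, as polyA-selected, dUTP-marked paired libraries, per the labels' protocols. cutadapt 1.9 and HISAT2 2.2.1 were used, per the submitters' processing notes. For the counting program, its strand option and the genome build the sources used here name nothing. Expected counts (whole numbers) and FPKM for 26848 genes were deposited by the authors. The value 4 occurred 8018 times, against 3344 for 3 and 2180 for 5, so 1 fragment appears to count as 4 units. Positions are those of the table; 9 of the 10 genes had identical coordinates in GENCODE M21 (GRCm38), Mmp14 not.

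Expected counts were tested with edgeR 4.0.16 (R 4.3.3): genes kept by filterByExpr (minimum count 10), scaled by TMM, quasi-likelihood test, two-sided, Benjamini-Hochberg adjustment over the 16006 genes tested, threshold 0.05. CPM used TMM-scaled totals. Values are mean ± SD. Fold changes are structured minus smooth, with SE and 95% intervals from the fit. DESeq2 1.42.0, limma 3.58.1 (voom, and FPKM with pseudocounts of 0.1, 0.5 and 1), other scalings, filters and a replicate block were alternatives. So were counts divided by 4, offsets for GC content and length, and leaving out libraries. The fit was tested on simulated data. The genes and lists were chosen with earlier results of these data known. Named were all 10 genes, Mmp8 and, per list, at most the 3 called genes of lowest p, or else its most abundant gene; App and Tnf were added after their values were seen. Likeness used the 2 genes with the smallest p. Of the genes this rule named, 2 are not reported here. A planned search of the proteins was not run. Libraries shared no more than 42 genes with identical counts.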

Additional observations from a re-analysis of the deposited data

Results flagged for a closer look

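Among 43 groups of 4 libraries looked at for a library standing apart in CPM, 4 had one. The rule's chance rate of about 1 group in 20 holds for normally distributed values. A gene read in only 1 library of a group is always flagged, as Mmp13 was. The 4 flags can therefore not be set against that rate. Mmp13 was read in smooth 1 at 0.811 CPM and in the other 3 smooth libraries at 0. It was read in structured 2 at 0.517 CPM and in the other 3 structured libraries at 0. Mmp8 was lowest in structured 1, at 0.75 CPM against 11.98 to 12.8 in structured 2 to 4. Jun was highest in structured 3, at 85.2 CPM against 78.6 to 79.7 in the other structured libraries.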

How the results depend on the processing

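Of 448 values of single genes under the alternatives, 350 kept their direction and side of the threshold, 83 fell below it, 8 passed it and 7 changed sign. The reversals were Timp1 (-0.28 to 0.0505 with 1 library left out, 0.0396 without the 3 libraries highest in hepatocyte transcripts, an alternative chosen after seeing the data), Timp2 (-0.23 to 0.0649 and 0.0556) and Adam10 (-0.0435 to 0.0002 with 1 library left out), none of them past the threshold in either direction. The 601 genes called over the table became 1433 with DESeq2, 313 with the correction for GC content and length plus the replicate block, 242, 191 and 187 with limma on log2 FPKM at pseudocounts of 0.1, 0.5 and 1, 189 with no count filter, 186 without those 3 libraries, and 88 (without structured 4) to 597 (without structured 3) with 1 library left out. Of the 10 genes, 1 was called higher and 2 lower with DESeq2, 1 higher with that correction alone, and 0 to 1 lower with 1 library left out. With counts divided by 4, the assumed units per fragment, edgeR tested 13072 genes and called 741. It then tested 7 of the 10 genes and called none of them. Mmp12, Timp2 and Tgfbi did not pass the filter in that fit. With library number as a replicate block, 499 genes were called and none of the 10, and Thbs1, Tgfbi and App were not called. Same-numbered libraries correlated at 0.05, 0.40, 0.15 and 0.03 in their deviations, and 0.40 was the highest value of any pair. Smooth 2 and smooth 3 correlated best with their own number, but smooth 1 with structured 4 (0.20) and smooth 4 with structured 1 (0.11). The labels do not say that a number marks a shared culture or day, so the numbers were not taken as pairs. Mmp12, Mmp13, Mmp14 and Timp2 had few fragments per library, and the part of depth in their spread was not tested. The cause of these changes was not tested.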
